A study of Mus musculus with 42 samples.

Results

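A set of 10 genes of the NRF2 antioxidant programme was followed in bone-marrow-derived macrophages (BMDM), which are macrophages grown from mouse bone marrow in culture. The genes were Hmox1, Nqo1, Gclm, Gclc, Txnrd1, Srxn1, Slc7a11, Gsr, Prdx1 and Akr1b8. They were found by symbol in the table of read counts, and all 10 of the 37310 genes listed there were among the 11624 genes with enough counts to test. The cells came from male mice in which LysM-Cre, a recombinase driven by the lysozyme 2 promoter of myeloid cells, was crossed to floxed Irf5 (libraries labelled KO), or from their wild-type littermates (labelled WT). Irf5 encodes interferon regulatory factor 5, a transcription factor of inflammatory macrophages. All cells had been differentiated in L929-conditioned medium. In each genotype the groups were Control at 0, 2 and 24 h, palmitate (a saturated fatty acid) at 2 and 24 h, and bacterial lipopolysaccharide (LPS) at 2 and 24 h, with 3 libraries in each of the 14 groups. Whether the 3 libraries came from separate mice is not given in the labels, so p-values measure only the spread between these libraries, which may be technical. Whether Control cells received the carrier of palmitate is not given either.

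NRF2, encoded by Nfe2l2, is the transcription factor of the cell's answer to oxidants and electrophiles. In resting cells KEAP1 holds it for degradation, and modified cysteines of KEAP1 let NRF2 build up, pair with small MAF proteins and bind antioxidant response elements in promoters and enhancers. BACH1 competes for the same elements and is best known for holding down Hmox1. In macrophages the programme supplies glutathione and thioredoxin, breaks down haem and is known to restrain inflammatory gene expression.

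Levels are given as CPM, counts scaled to a common library total after TMM normalisation. Total counts per library lay between 2848793 and 7743442, and each of the 10 genes had between 44 and 22614 counts in every library. The targeted gene went against its label. Irf5 averaged 220.5 to 379.6 CPM in the WT groups and 277.5 to 411.6 CPM in the KO groups, and it was called higher, not lower, in KO in 4 of 7 conditions. Counts were per gene and not per exon, so they do not show whether the floxed part was deleted, and Irf5 shares bases with Tnpo3. "KO" is therefore used only as the label of a library. All 6 macrophage markers were present, at a summed level of 4710 to 8747 CPM. Markers of other cells differed by label. At Control 0 h, fibroblast markers summed to 0.529 to 0.905 CPM in WT and 42.1 to 69.3 CPM in KO, and granulocyte precursor markers to 47.2 to 54.4 CPM in WT and 72.9 to 81.3 CPM in KO. Fibroblast markers were also higher in KO at Control 2 h (72.3 to 118 CPM, against 1.16 to 58.7 CPM in WT). At LPS 2 h they were at 0.759 to 152 CPM in KO and 0.371 to 0.716 CPM in WT, again without overlap. They varied widely within groups, from 0.777 to 306 CPM in KO palmitate 2 h and from 0.560 to 175 CPM in KO LPS 24 h. B cell markers went the other way at Control 0 h, at 8.20 to 12.8 CPM in WT and 3.06 to 7.02 CPM in KO. Dendritic cell markers were higher in KO at Control 24 h (4.53 to 6.95 CPM, against 1.40 to 2.48 CPM in WT). In the other conditions each of these lists overlapped between the labels. The T or NK cell and erythroid markers did not pass 1.90 CPM in any library. In WT LPS 24 h, library 2 had the highest of the 3 values for 10 of the 10 genes, against 37.7% of all genes tested. In KO LPS 24 h, library 2 had the lowest value for 10 of 10, against 35% of all genes. Of the 42 libraries, 8 were the highest or the lowest of their group for at least 9 of the 10 genes. Besides these, they include KO Control 0 h library 1 (highest for 9) and library 2 (lowest for 9), and WT palmitate 24 h library 2 (lowest for 9). WT LPS 24 h library 3 and KO Control 2 h library 1 (each lowest for 9) and WT palmitate 2 h library 3 (highest for 9) are the others. How often other sets of 10 genes would show this was not tested.

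The genes fall into 3 roles. Slc7a11 (cystine-glutamate exchanger, chr3:49892526-50443614), Gclc and Gclm (catalytic and modifier subunits of glutamate-cysteine ligase, chr9:77754535-77794485 and chr3:122245557-122270732) and Gsr (glutathione reductase, chr8:33652523-33698163) make and recycle glutathione. Txnrd1 (thioredoxin reductase, chr10:82833951-82897712), Srxn1 (sulfiredoxin, which repairs over-oxidised peroxiredoxins, chr2:152105516-152111376) and Prdx1 (a peroxiredoxin, chr4:116685544-116700822) serve the thioredoxin system. Hmox1 (haem oxygenase, chr8:75093621-75100589), Nqo1 (a quinone reductase, chr8:107388225-107403206) and Akr1b8 (an aldo-keto reductase of carbonyls, chr6:34354119-34368463) break down haem, quinones and aldehydes. Positions are those of the GENCODE annotation of GRCm38, the counts cover each protein-coding gene as a whole, and those of Prdx1 and Akr1b8, which have close copies in the genome, are uncertain.

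The promoter sequences are shown because the genes differed in their response to LPS while being grouped as targets of a single factor. RefSeq windows of 300 bases on GRCm38.p6, from 250 bases before to 50 after the start of transcription, were at hand for 7 of the 10 genes and not for Hmox1, Gclc and Gsr. The core of the antioxidant response element, searched as TGACNNNGC on both strands, was found in 12.4% of all 32851 such windows. Among the 10 genes it was present in Gclm, Prdx1, Srxn1 (after the start) and the second of 3 Txnrd1 windows, and it was also present in Nfe2l2. It was not found in the windows of Nqo1, Slc7a11, Akr1b8, Keap1 and Bach1. Below, capitals mark the core, which on the printed strand reads as the reverse complement (GCNNNGTCA) in Gclm, Txnrd1 and Prdx1.
Gclm, chr3:122245383-122245471, plus strand: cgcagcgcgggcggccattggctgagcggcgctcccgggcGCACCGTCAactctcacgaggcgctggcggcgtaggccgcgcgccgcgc
Txnrd1, chr10:82859074-82859162, plus strand: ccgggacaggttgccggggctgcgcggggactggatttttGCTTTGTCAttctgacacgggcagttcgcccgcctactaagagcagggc
Prdx1, chr4:116685426-116685514, plus strand: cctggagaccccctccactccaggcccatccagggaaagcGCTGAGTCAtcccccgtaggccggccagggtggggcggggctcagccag
Nfe2l2, chr2:75704855-75704913, minus strand: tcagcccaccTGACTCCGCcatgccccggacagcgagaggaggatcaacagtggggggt
The core began 134 bases before the start in Gclm, 92 in Txnrd1, 133 in Prdx1 and 240 in Nfe2l2, each counted to its first base on the printed strand. In Prdx1 it overlaps an AP-1 site (TGACTCA, in 5.20% of all windows). The Prdx1 window held a further AP-1 site 237 bases before the start, and the Srxn1 window held AP-1 sites 102 and 45 bases before its start.

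The Slc7a11 window held 2 copies of TGATGNAA, the letters of the amino acid response element bound by ATF4, which were in 3.97% of all windows. In the sequence below the capitals mark both copies, 66 and 47 bases before the start, the second as its reverse complement.
Slc7a11, chr3:50443614-50443719, minus strand: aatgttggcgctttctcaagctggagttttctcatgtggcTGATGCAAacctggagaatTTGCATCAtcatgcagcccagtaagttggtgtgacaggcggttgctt
Such matches describe letters in these windows and do not show that a factor bound there.

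Per kilobase of exon, in WT Control 0 h, Prdx1 stood at 929 ± 82.9 and Hmox1 at 863 ± 14.2 CPM per kb (SD, n = 3), and their libraries overlapped. Srxn1 followed at 120 CPM per kb, then Akr1b8 (108) and Gsr (103), of which only the last pair of neighbours overlapped. Gclm stood at 86.8, Txnrd1 at 75.5, Gclc at 24.4, Nqo1 at 15.1 and Slc7a11, the cystine exchanger, lowest at 10.1 CPM per kb. Across the study the lowest of these varied most and the highest least. The highest of the 14 group means was 5.60 times the lowest for Slc7a11 and 4.46 times for Gclc, against 1.62 times for Gsr and 1.58 times for Prdx1.

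**Figure D1:**
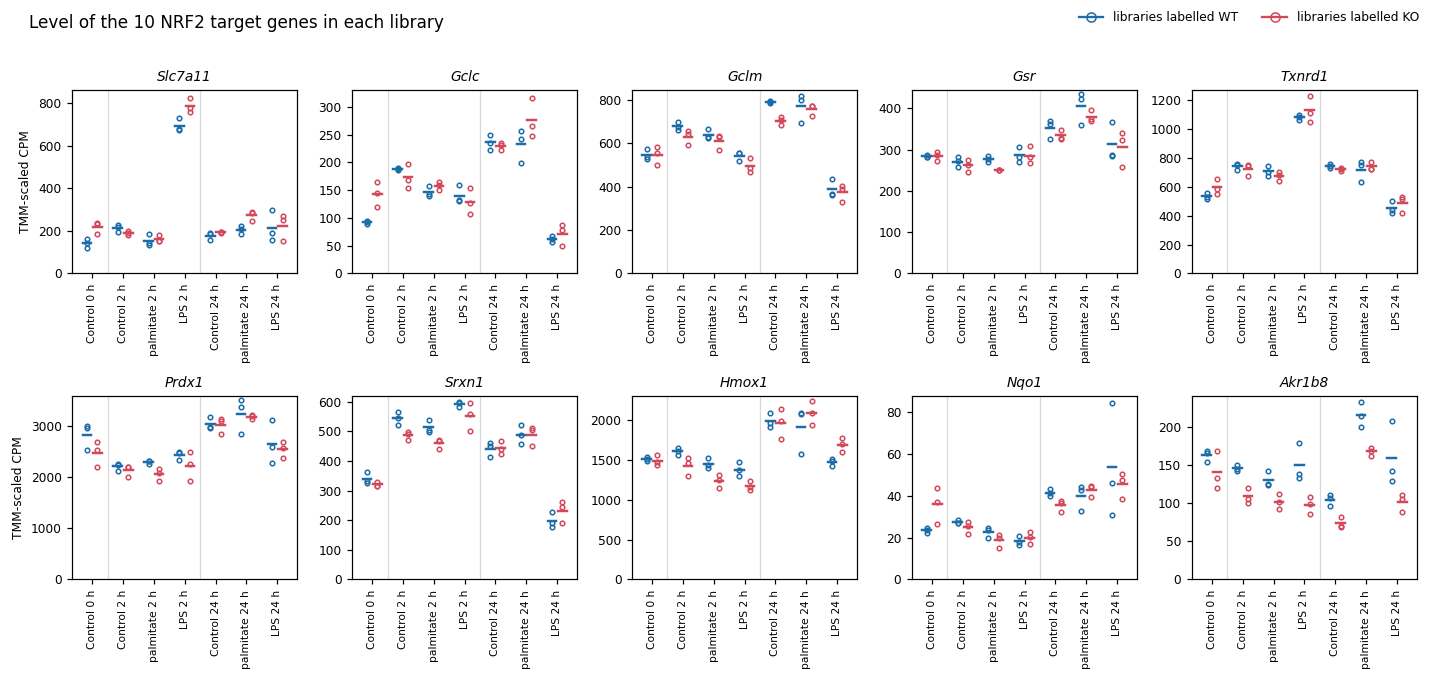
Level of each of the 10 genes (TMM-scaled CPM, linear axis from 0) in the 7 conditions, with an open circle for each library, a bar for each group mean, WT in blue and the libraries labelled KO in red. Slc7a11 stands at 671 to 824 CPM in LPS 2 h and at 118 to 299 CPM in the other conditions, while Gclc is lowest in LPS 24 h.

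At 2 h of LPS the cystine exchanger and thioredoxin reductase rose while both subunits of glutamate-cysteine ligase and Hmox1 fell, in each genotype. Slc7a11 was at 216, 225 and 194 CPM in the 3 WT Control 2 h libraries and at 671, 728 and 677 CPM in WT LPS 2 h. In the libraries labelled KO it was at 180, 189 and 199 CPM in Control 2 h and at 824, 778 and 759 CPM in LPS 2 h. All treated libraries thus stood above all Control libraries of their genotype. The log2 change was 1.71 (SE 0.144, adjusted p = 2.91e-14) in WT and 2.05 (adjusted p = 6.40e-17) in KO, from the quasi-likelihood test of edgeR adjusted by Benjamini-Hochberg, the source of every adjusted p below unless another tool is named. Txnrd1 went from 757, 718 and 756 CPM to 1086, 1067 and 1098 CPM in WT, a difference of 0.54 on the log2 scale (SE 0.072, adjusted p = 2.61e-08). In KO it went from 676, 754 and 749 CPM to 1230, 1053 and 1113 CPM (log2 fold change 0.64, adjusted p = 3.52e-10), again without overlap.

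Gclm, the modifier subunit, fell over the same 2 h from 660, 676 and 700 CPM to 555, 517 and 556 CPM in WT (log2 fold change -0.32, SE 0.070, adjusted p = 0.000324). In KO it fell from 591, 643 and 658 CPM to 531, 467 and 485 CPM (log2 fold change -0.35, adjusted p = 8.55e-05). Gclc, the catalytic subunit, fell in WT from 186, 187 and 189 CPM to 158, 133 and 129 CPM (log2 fold change -0.43, SE 0.118, adjusted p = 0.00451). Its KO change was -0.44 (adjusted p = 0.00432), a call that was lost without KO LPS 2 h library 2 (-0.31, adjusted p = 0.0849), where Gclc was at 106 CPM against 155 and 127 CPM in the other two. Hmox1 was at 1655, 1614 and 1559 CPM in WT Control 2 h and at 1293, 1477 and 1370 CPM in WT LPS 2 h, groups that did not overlap. Its log2 fold change was -0.22 (SE 0.074, adjusted p = 0.0242) in WT and -0.28 (adjusted p = 0.00289) in KO. The WT call for Hmox1 was lost when WT Control 2 h library 1 (adjusted p = 0.0747) or library 2 (0.0531), or WT LPS 2 h library 1 (0.124) or library 3 (0.0708), was left out. Nqo1 was not called in WT (log2 fold change -0.56, adjusted p = 0.0539).

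At LPS 2 h, 5 of 10 genes were called in WT (2 higher, 3 lower) and 5 of 10 in KO (2 higher, 3 lower). Of all genes tested, 23.1% were called in WT and 23.9% in KO. The median log2 fold change of the 10 genes was 0.06 in WT and -0.04 in KO, beside -0.01 over all genes in both. In WT, fibroblast markers were lower at LPS 2 h (0.371 to 0.716 CPM against 1.16 to 58.7 CPM in Control 2 h). Granulocyte precursor markers were higher in the same WT libraries (45.4 to 65.9 CPM against 19.3 to 32.9 CPM). In KO both marker lists overlapped Control 2 h. Their part in the result was not tested.

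By 24 h of LPS, Gclc, Gclm, Srxn1, Txnrd1 and Hmox1 were below Control in both genotypes, and of the 10 genes only Akr1b8 was called higher. Gclc was at 223, 250 and 235 CPM in WT Control 24 h and at 62.5, 66.5 and 56.8 CPM in WT LPS 24 h, which is -1.93 on the log2 scale (SE 0.123, adjusted p = 8.21e-19). In KO it was at 235, 232 and 222 CPM and at 77.4, 50.2 and 86.5 CPM (log2 fold change -1.67, adjusted p = 8.02e-17). In both genotypes every treated library lay well below every Control library. Gclm was at 789, 788 and 796 CPM in WT Control and 368, 436 and 363 CPM after LPS, and its log2 fold change was -1.02 (SE 0.071, adjusted p = 1.73e-17) in WT and -0.91 (adjusted p = 1.01e-15) in KO. The groups of Gclm did not overlap in either genotype.

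Srxn1, the sulfiredoxin, fell from 449, 460.1 and 413 CPM in WT Control 24 h to 190.5, 228 and 177 CPM in WT LPS 24 h (log2 fold change -1.15, SE 0.079, adjusted p = 1.84e-17). Its change in KO was -0.93 (adjusted p = 2.06e-14). Txnrd1 fell from 746, 759 and 734 CPM to 437, 503 and 421 CPM in WT (log2 fold change -0.72, adjusted p = 9.27e-12), and its KO change was -0.56 (adjusted p = 9.04e-09). The reductase that stood above Control at 2 h thus stood below Control at 24 h, in each genotype. Hmox1 was at 1965, 2091 and 1920 CPM in WT Control 24 h and at 1491, 1516 and 1427 CPM after LPS (log2 fold change -0.43, adjusted p = 3.37e-06). In KO the change of Hmox1 was -0.22 (adjusted p = 0.0152), the groups overlapped, and the call was lost without KO Control 24 h library 1 (-0.15, adjusted p = 0.143) or 2 (adjusted p = 0.0517) or without KO LPS 24 h library 2 (adjusted p = 0.093).

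Akr1b8, the aldo-keto reductase, rose from 95.7, 106 and 110.4 CPM to 142, 207 and 129 CPM in WT (log2 fold change 0.60, SE 0.119, adjusted p = 3.93e-05). In KO it rose from 70.0, 68.3 and 81.8 CPM to 110.3, 88.3 and 105 CPM (log2 fold change 0.46, adjusted p = 0.00232). Neither pair of groups overlapped, and the highest WT value, 207 CPM, was in the library 2 that was highest for every one of the 10 genes. Without it the WT value of Akr1b8 was 0.37 (adjusted p = 0.00795). Slc7a11, at 187, 299 and 158 CPM in WT LPS 24 h beside 155, 192 and 186 CPM in Control, was not called (0.26, adjusted p = 0.158 in WT and 0.21, adjusted p = 0.257 in KO). Without library 2 the WT value of Slc7a11 was -0.05 and without library 3 it was 0.45 (called, adjusted p = 0.0156), and in KO it was 0.06 without KO LPS 24 h library 1 and 0.43 (called, adjusted p = 0.0133) without library 2. Testing all genes called Slc7a11 in each genotype. Gsr and Nqo1 were not called in either genotype, with log2 fold changes of -0.17 and 0.36 in WT. The WT value of Nqo1 turned to -0.12 without WT LPS 24 h library 2 and was 0.65 (called, adjusted p = 0.00121) without library 3. That of Gsr was -0.30 (called, adjusted p = 0.00198) without WT LPS 24 h library 2 and -0.23 (adjusted p = 0.0412) without WT Control 24 h library 3. Nqo1 was also called in each genotype when all genes were tested, and in KO when only the compared libraries were fitted. The direction of Slc7a11 and Nqo1 in WT thus rested on library 2. Prdx1 was called in KO (-0.25, adjusted p = 0.0119) and not in WT (-0.20, adjusted p = 0.0506), and the KO call was lost without KO Control 24 h library 2 (adjusted p = 0.0591) or KO LPS 24 h library 2 (adjusted p = 0.0831). In WT, Prdx1 was called with RLE size factors (adjusted p = 0.0421), in DESeq2 (0.0434), with all genes tested (0.00327) and without WT LPS 24 h library 2 (-0.32, adjusted p = 0.00114). The difference between the genotypes in these responses is tested further on.

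At 24 h, 6 of 10 genes were called in WT (1 higher, 5 lower) and 7 of 10 in KO (1 higher, 6 lower). The share over all genes was 39.5% in WT and 40.9% in KO. The median of the 10 log2 fold changes was -0.31 in WT and -0.23 in KO, and the all-gene median was -0.01 in each. Macrophage markers summed to 7682 to 8747 CPM in the LPS 24 h libraries, against 4918 to 5078 CPM in Control 24 h. Granulocyte precursor markers were lower with LPS 24 h, at 30.6 to 33 CPM against 50.8 to 61.0 CPM in WT and at 42 to 63.1 CPM against 127 to 198 CPM in KO. Fibroblast markers were also lower in WT (0.171 to 2.48 CPM against 2.74 to 45.2 CPM). In KO they overlapped Control (0.560 to 175 and 39.5 to 133 CPM). The part of these markers in the result was not tested. In this bulk RNA, fewer cells of a type and less RNA per cell cannot be told apart.

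**Figure D2:**
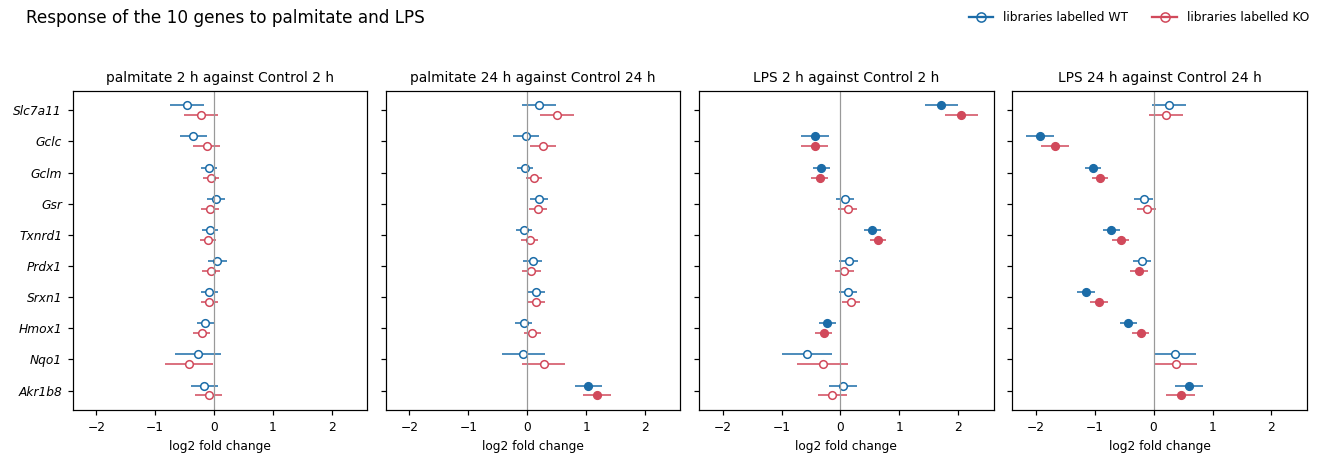
Log2 fold change of each gene against its time-matched and genotype-matched Control, in 4 panels for palmitate and LPS at 2 and 24 h, with 95% intervals from the SE of the edgeR fit and filled points for genes called at an adjusted p under 0.05. Slc7a11 stands at 1.71 (WT) and 2.05 (KO) at LPS 2 h, Gclc at -1.93 and -1.67 at LPS 24 h, and Akr1b8 is alone in being called for palmitate.

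The shift between the times was itself tested, as the response to LPS at 24 h minus that at 2 h. In WT 8 of 10 genes differed, 2 higher and 6 lower, against 32.6% of all genes. In KO 7 differed, 1 higher and 6 lower, against 33.4% of all genes. The differences for Slc7a11 were -1.45 (adjusted p = 9.73e-08) in WT and -1.84 (adjusted p = 2.29e-10) in KO. Gclc differed by -1.50 in WT (adjusted p = 3.78e-10) and -1.23 in KO (adjusted p = 5.78e-08). The later response was thus the lower one for the cystine exchanger and for the ligase it supplies. Akr1b8 differed the other way, by 0.56 in WT (adjusted p = 0.00740) and 0.60 in KO (adjusted p = 0.00647). The WT difference of Akr1b8 was not called without WT LPS 24 h library 2 (0.33, adjusted p = 0.0941), nor was that of Nqo1 (0.93 with all libraries, 0.45 and adjusted p = 0.136 without it). Prdx1 differed by -0.33 in WT and -0.31 in KO, calls lost without any of 4 libraries in WT (adjusted p up to 0.137) and any of 7 in KO (up to 0.184).

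Palmitate called none of the 10 genes at 2 h, and of the 10 only Akr1b8, which rose, at 24 h. Akr1b8 stood at 95.7, 106 and 110.4 CPM in WT Control 24 h and at 214, 232 and 199 CPM in WT palmitate 24 h. In KO it stood at 70.0, 68.3 and 81.8 CPM in Control and at 169, 162 and 172 CPM with palmitate. Each treated library stood well above each Control library of its genotype. The rise was 1.04 on the log2 scale (SE 0.118, adjusted p = 1.99e-08), or 2.05-fold, in WT. In KO it was 1.18 (SE 0.123, adjusted p = 1.43e-09), or 2.27-fold. At palmitate 24 h, 0.852% of all genes were called in WT (0.671% higher) and 0.877% in KO (0.637% higher), and by p-value Akr1b8 ranked 9 and 7 among the 11624 genes. At palmitate 2 h Akr1b8 was at 124, 124 and 142 CPM in WT and 101, 112 and 92.7 CPM in KO, with changes from Control 2 h of -0.17 and -0.10 that were not called. The response at 24 h exceeded that at 2 h by 1.20 in WT (adjusted p = 1.28e-05) and by 1.28 in KO (adjusted p = 9.94e-06), in tests that called 0.241% and 0.172% of all genes. Control Akr1b8 itself fell between 0 and 24 h, and the palmitate 24 h level was not tested against the starting level. In WT, palmitate 24 h (199 to 232 CPM) lay above Control 0 h (153.9 to 167.6 CPM), whereas in KO palmitate 24 h (162 to 172 CPM) overlapped Control 0 h (119.7 to 167.7 CPM). Fibroblast markers also moved in this KO comparison, from 39.5 to 133 CPM in Control 24 h to 0 to 7.32 CPM with palmitate, while in WT they overlapped (2.74 to 45.2 and 0.346 to 10.2 CPM). Dendritic cell markers were lower with palmitate in KO (1.79 to 3.98 CPM against 4.53 to 6.95 CPM) and overlapped in WT. Granulocyte precursor markers were higher with palmitate in WT (61.06 to 83.7 CPM against 50.8 to 61.02 CPM). So were macrophage markers (5149 to 5371 CPM against 5032 to 5078 CPM), and in KO both lists overlapped. The part of these markers in the palmitate result was not tested.

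The other genes were not called with palmitate. At 24 h Hmox1 was at 2077, 1578 and 2091 CPM in WT beside 1965, 2091 and 1920 CPM in Control, overlapping groups with a log2 fold change of -0.06 (95% interval -0.20 to 0.09). Gclm differed by -0.04 (-0.17 to 0.10) and Txnrd1 by -0.06 (-0.20 to 0.09) in WT. Slc7a11 in KO was at 288, 245 and 285 CPM beside 196, 189 and 192 CPM, without overlap, and its difference of 0.50 (0.22 to 0.79) was not called (adjusted p = 0.0947). It was called when all genes with a count were tested or when only the compared libraries were fitted. At 2 h, 0 of 10 genes were called in WT, where 0.275% of all genes were, and 0 of 10 in KO, where 0.112% were. DESeq2 also called 0 in each. In edgeR, 2 of the 10 genes in WT and 2 in KO had an unadjusted p under 0.05, a threshold at which the share of all genes is not given here. The 2 in WT were Slc7a11 (-0.46, adjusted p = 0.312) and Gclc (-0.35, adjusted p = 0.312), and the 2 in KO were Hmox1 (-0.21, adjusted p = 0.857) and Nqo1 (-0.42, adjusted p = 1.00). The WT values of Slc7a11 and Gclc were called as lower in both of those other fits. Plin2, the lipid droplet coat protein induced by fatty acids, rose in the same libraries by 0.93 (WT) and 1.10 (KO) at 2 h and by 1.99 and 2.02 at 24 h.

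Between the genotypes, Akr1b8 was lower in the libraries labelled KO than in WT, and Slc7a11, Gclc and Nqo1 were higher at Control 0 h. Akr1b8 in Control 24 h was at 95.7, 106 and 110.4 CPM in WT and at 70.0, 68.3 and 81.8 CPM in KO. In LPS 24 h it was at 142, 207 and 129 CPM in WT and at 110.3, 88.3 and 105 CPM in KO, and in LPS 2 h at 138, 178 and 133 CPM and at 86.2, 98.5 and 108 CPM. In none of these did a KO library reach a WT library. The fitted difference was negative in 7 of 7 conditions, as for 2.97% of all genes, and the groups did not overlap in 6 of 7, the exception being Control 0 h, as for 0.0430% of all genes (5 genes). Single differences were called in LPS 2 h (-0.61, SE 0.126, adjusted p = 0.00856) and LPS 24 h (-0.65, SE 0.117, adjusted p = 0.00213), where 0.163% and 0.0602% of all genes were called lower (0.465% and 0.146% in either direction). The LPS 2 h call was lost without WT library 2 (-0.46, adjusted p = 0.14) or KO library 1 (-0.54, adjusted p = 0.0542), and that at LPS 24 h without WT library 2 (-0.41, adjusted p = 0.149) or in a fit of only the compared libraries (adjusted p = 0.0985). Over the mean of the 7 conditions the log2 difference of Akr1b8 was -0.44 (SE 0.045, adjusted p = 4.24e-10), or 0.735 of WT, and it ranked 14 by p-value. In this mean 11.4% of all genes were called, and 5.33% were called lower. Libraries of different conditions may come from the same mice. The p-values of this mean, here and below, may therefore be too small, and the 7 conditions may not be independent. Granulocyte precursor markers were higher in the libraries labelled KO in each condition. In Control 24 h they were at 50.8 to 61.0 CPM in WT and 127 to 198 CPM in KO. Fibroblast markers were higher in KO at LPS 2 h as well (0.759 to 152 CPM, against 0.371 to 0.716 CPM in WT), while at LPS 24 h they overlapped. The part of both marker lists in the result was not tested.

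At Control 0 h, Slc7a11 was at 163, 118 and 141 CPM in WT and at 237, 184 and 231 CPM in KO (log2 fold change 0.63, SE 0.149, adjusted p = 0.00310). Gclc was at 93.9, 89.2 and 92.2 CPM in WT and at 164, 120 and 145 CPM in KO (0.64, SE 0.120, adjusted p = 0.000201). For both genes every KO library exceeded every WT library. Nqo1, at 23.5, 22.1 and 24.7 CPM in WT and 44.0, 26.5 and 37.1 CPM in KO, had a difference of 0.60 (SE 0.194, adjusted p = 0.0326). That call was lost in DESeq2 (adjusted p = 0.0523) and without WT library 1 (adjusted p = 0.0782), 2 (0.0986) or 3 (0.0655), KO library 1 (0.44, adjusted p = 0.22) or KO library 3 (0.0991). At this time 12.5% of all genes were called and 6.40% were called higher, beside 3 of the 10 genes. The fibroblast, granulocyte precursor and B cell markers given above differed in the same libraries, a part in the result that was not tested. The other 7 genes were not called, and Gclm, at 538, 526 and 574 CPM in WT and 584, 498 and 556 CPM in KO, overlapped.

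In Control 2 h, palmitate 2 h, Control 24 h and palmitate 24 h, 0 of 10 genes were called between genotypes by edgeR, and 0 by DESeq2. The shares of all genes called, at an adjusted p under 0.05, were 0.490%, 0.146%, 0.120% and 0.0688%. At an unadjusted p under 0.05 the numbers of the 10 genes were 3, 3, 2 and 3. The shares of all genes at that unadjusted threshold are not given here, so these numbers have no background to be read against. Over the mean of the 7 conditions Slc7a11 (0.19, adjusted p = 0.0202) and Gclc (0.13, adjusted p = 0.0438) were higher, and Gclm (-0.08, adjusted p = 0.0401) and Prdx1 (-0.09, adjusted p = 0.0479) were lower. Those of Gclc, Gclm and Prdx1 were lost under 27, 22 and 30 of 46 alternatives. That of Slc7a11 was lost only without Control 0 h (0.11, adjusted p = 0.322). Slc7a11 was also higher in KO without overlap, though not called, at LPS 2 h and palmitate 24 h. Hmox1 was not called in any single condition. It was lower in KO without overlap at Control 2 h, palmitate 2 h and LPS 2 h. At LPS 24 h it was higher in KO without overlap (1597 to 1778 CPM, against 1427 to 1516 CPM in WT). The share of all genes with such patterns is not given here.

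**Figure D3:**
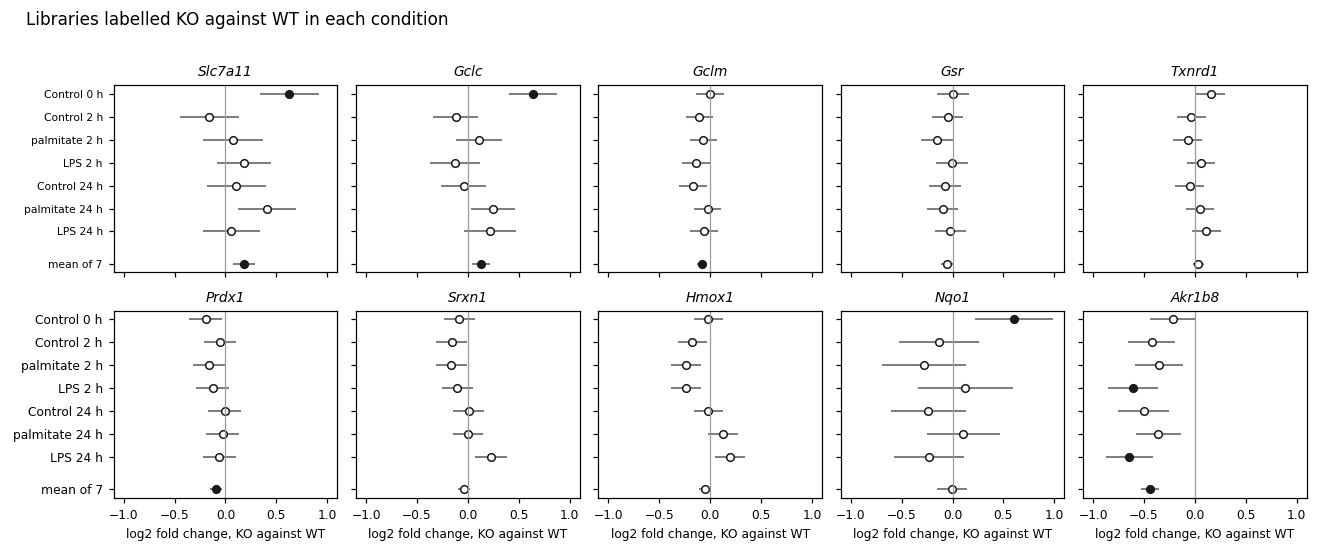
Difference between libraries labelled KO and WT (log2 fold change, KO against WT) for each gene in each of the 7 conditions and in their mean, with 95% intervals from the SE and filled points for calls at an adjusted p under 0.05. Akr1b8 (mean -0.44) and Prdx1 lie below 0 in all 7 conditions, while Slc7a11, Gclc and Nqo1 stand at 0.63, 0.64 and 0.60 in Control 0 h.

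The responses to treatment were not shown to differ by genotype. None of the 10 genes was called by edgeR or by DESeq2 in the test of the genotype difference in the response to palmitate or LPS at 2 or 24 h. At an unadjusted p under 0.05 the number was 0 in each but LPS 24 h, where it was 1, Hmox1 (0.21, 95% interval 0.01 to 0.42). Over all genes tested, 0.00860% (1 gene) was called at LPS 24 h by adjusted p, and the share at the unadjusted threshold is not given here. These intervals do not show that the responses were alike. For Slc7a11 at LPS 2 h the difference was 0.34 (-0.05 to 0.73), for Gclc at LPS 24 h 0.26 (-0.08 to 0.60), and for Akr1b8 at palmitate 24 h 0.15 (-0.19 to 0.48).

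Untreated cells also moved with time in culture, and the treatments are each set against these moving Controls. In WT, Gclc rose from 93.9, 89.2 and 92.2 CPM at 0 h to 186, 187 and 189 CPM at 2 h and 223, 250 and 235 CPM at 24 h. Its log2 fold changes from 0 h were 1.03 (adjusted p = 1.50e-09) and 1.36 (adjusted p = 2.66e-12). The libraries of the 3 times did not overlap. At 2 h in WT, Srxn1 (0.68, adjusted p = 1.11e-09), Slc7a11 (0.59, adjusted p = 0.00328), Txnrd1 (0.47, adjusted p = 1.75e-06) and Gclm (0.31, adjusted p = 0.000838) rose too. Prdx1 fell, from 2953, 2537 and 2992 CPM to 2262, 2122 and 2247 CPM (-0.36, adjusted p = 0.00123). In all, 6 of 10 genes were called, against 14.3% of all genes.

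At 24 h in WT, 8 of 10 were called against 12.1% of all genes, with Nqo1 (0.83, adjusted p = 0.00194), Gclm (0.54, adjusted p = 1.45e-07), Txnrd1 (0.48), Hmox1 (0.40), Srxn1 (0.37) and Gsr (0.31) higher beside Gclc. Akr1b8 was the one gene lower (-0.63, adjusted p = 0.000127). It was likewise lower in KO (-0.92, adjusted p = 3.62e-07), where 7 of 10 genes were called at 24 h against 8.17% of all genes. In KO at 2 h, 4 of 10 were called against 12.1%, namely Srxn1 (0.60), Txnrd1 (0.28), Gclm (0.21) and Akr1b8 (-0.37). Of these, Txnrd1 was lost without KO Control 0 h library 2 (adjusted p = 0.0538), and Gclm (down to 0.14, adjusted p = 0.248, without KO Control 0 h library 2) and Akr1b8 (to -0.21, adjusted p = 0.395, without KO Control 0 h library 3) each without any of 4 libraries. At 24 h in KO, Txnrd1 (0.27) was lost without KO Control 0 h library 2 (adjusted p = 0.0991) or 3 (0.053), and Prdx1 (0.29) without KO Control 0 h library 3 (0.22, adjusted p = 0.174) or KO Control 24 h library 1 (0.0666) or 2 (0.0845). The comparisons at 2 and 24 h share their 0 h libraries, and those libraries are also the ones in which Slc7a11 and Gclc differed by genotype.

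The genotype difference in the change from 0 h, a comparison added after the data were seen, was -0.79 for Slc7a11 (adjusted p = 0.0181) and -0.76 for Gclc (adjusted p = 0.00329) at 2 h, where 4.77% of all genes were called. At 24 h it was -0.68 for Gclc (adjusted p = 0.0171), where 1.83% were. The Slc7a11 value was not called without WT Control 0 h library 2 (-0.67, adjusted p = 0.0625), KO Control 0 h library 1 (0.058) or 3 (0.056), or WT Control 2 h library 2 (0.0532). The Gclc value at 24 h was lost without KO Control 0 h library 1 (-0.59, adjusted p = 0.0868) or library 3 (adjusted p = 0.0536).

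The genes that govern NRF2 were led at LPS 2 h by Maff, a small MAF partner, and by Nfe2l2 itself. Nfe2l2 was at 284, 290 and 295 CPM in WT Control 2 h and at 675, 700 and 665 CPM in WT LPS 2 h, without overlap. Its log2 fold change was 1.23 (adjusted p = 3.37e-23) in WT and 1.22 (adjusted p = 4.76e-23) in KO. At 24 h of LPS it was at 199, 239 and 202 CPM in WT, beside 230, 232 and 224 CPM in Control, and was not called. Maff was at 10.1, 9.43 and 6.96 CPM in WT Control 2 h and at 144, 146 and 150 CPM in WT LPS 2 h (log2 fold change 4.07). At LPS 24 h Maff was called higher in KO (1.26, adjusted p = 0.000771) and was not called in WT. Sqstm1, the autophagy receptor p62 that binds KEAP1, rose by 1.14 in WT and 1.18 in KO. Keap1 fell at LPS 2 h (-0.45, adjusted p = 0.000862 in WT, -0.35, adjusted p = 0.0153 in KO) and was higher at LPS 24 h (0.61, adjusted p = 7.44e-07 in WT, 0.83, adjusted p = 2.78e-10 in KO). Bach1, the competing repressor, was not called at 2 h and fell at 24 h by 0.50 in WT and 0.43 in KO on the log2 scale.

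Of the 15 regulators listed, all tested, 7 were higher and 1 lower at LPS 2 h in WT (5 and 1 in KO). At LPS 24 h, 2 were higher and 3 lower in WT (4 and 4 in KO), and palmitate called none at either time in either genotype. Over all genes, 23.1% (WT) and 23.9% (KO) were called at LPS 2 h, and 39.5% and 40.9% at LPS 24 h. Palmitate called 0.275% (WT) and 0.112% (KO) of all genes at 2 h, and 0.852% and 0.877% at 24 h. Its lack of calls among the 15 regulators is thus near the share over all genes. At 2 h the transcripts of NRF2 and its partner rose together with Slc7a11 and Txnrd1, while Gclc and Gclm fell in the same libraries. RNA levels do not report the amount of NRF2 protein.

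**Figure D4:**
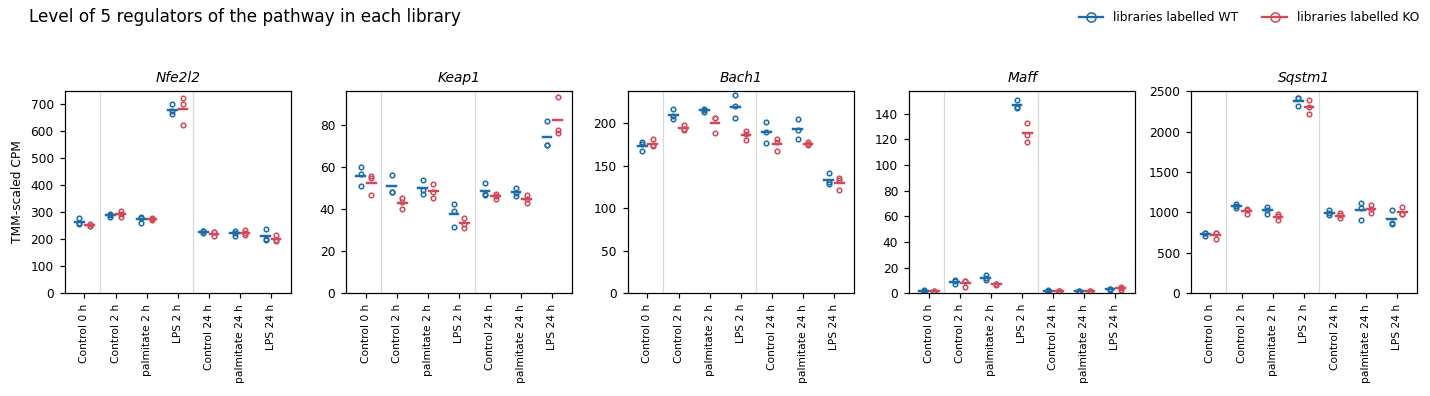
Level of 5 regulators of NRF2 (Nfe2l2, Keap1, Bach1, Maff and Sqstm1, TMM-scaled CPM, linear axis from 0) in the 7 conditions, with open circles for libraries, bars for group means, WT in blue and libraries labelled KO in red. Nfe2l2 stands at 680 CPM on average in WT LPS 2 h and 213 CPM in WT LPS 24 h, and Maff at 147 and 3.26 CPM.

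Other NRF2 targets, 31 of 36 listed genes tested, were called both ways with LPS. In WT 1 was higher and 5 lower at 2 h, and 5 higher and 12 lower at 24 h. In KO the counts were 2 and 5 at 2 h, and 6 and 15 at 24 h. The shares of all genes called in these comparisons, which apply to each of the lists here, were 23.1% (WT) and 23.9% (KO) at LPS 2 h and 39.5% and 40.9% at LPS 24 h. Osgin1, an oxidative stress-induced growth inhibitor, fell at 2 h by 2.03 (WT) and 2.09 (KO) on the log2 scale, and Cbr3, a carbonyl reductase, by 0.80 and 0.91. At 24 h Ephx1, a microsomal epoxide hydrolase, fell by 1.25 and 1.48, and Cat, the catalase, by 0.93 and 0.97. Against these, Txn1 (thioredoxin) rose by 0.72 and 0.77 and Fth1 (ferritin heavy chain) by 0.46 and 0.45 at 24 h. The medians of this list at 24 h were -0.10 in WT and -0.29 in KO. Palmitate at 24 h raised Cd36, the fatty acid scavenger receptor, by 0.45 in WT and 0.39 in KO, and Abcc4 in KO.

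Genes of the glutathione and thioredoxin systems outside the 10, 31 of 34 tested, moved both ways. At LPS 24 h, 12 were higher and 7 lower in WT, and 12 and 9 in KO (39.5% and 40.9% over all genes). The mitochondrial enzymes Sod2 (superoxide dismutase, 3.20 in WT and 3.08 in KO) and Prdx5 (a peroxiredoxin, 2.14 and 2.07) rose, and Gpx3, the secreted glutathione peroxidase, fell by 1.86 and 1.68. At LPS 2 h 6 were higher and 4 lower in WT, and 6 and 3 in KO (23.1% and 23.9% over all genes). Palmitate at 24 h raised 3 in each genotype (0.852% and 0.877% of all genes were called), which were Oplah, the oxoprolinase of the glutathione cycle (1.13 and 1.22), Sod2 (0.39 and 0.47) and Sod1 (0.31 and 0.31). In the haem list of 12 genes, Hmox2, the constitutive haem oxygenase, was lower at LPS 2 h (-0.40 and -0.45) and higher at LPS 24 h (0.70 and 0.76), unlike Hmox1, which was lower at both times.

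Genes of the ATF4 amino acid response were listed because Slc7a11 is also one of its targets. Atf4 rose at LPS 2 h by 0.64 in WT and 0.67 in KO. Slc3a2, the heavy chain that carries the exchanger to the membrane, rose by 0.22 in WT and 0.24 in KO at 2 h. Of the 11 genes, 3 were higher and 3 lower at LPS 2 h in WT (4 and 3 in KO), with Ddit3 and Sesn2 among the lower, beside 23.1% and 23.9% of all genes called. At LPS 24 h 8 were higher and 1 lower in each genotype, beside 39.5% and 40.9% of all genes. Asns, asparagine synthetase, stood at 1.62 in WT and 1.50 in KO. Slc7a11 itself was not called at that time, a result that changed under the other fits given above. A part of ATF4 in the level of Slc7a11 was not tested. The medians of the list at 24 h were 0.84 in WT and 1.17 in KO.

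Across the 14 group means (log2 CPM), the genes whose pattern was most like each of the 10 were sought among tested genes of at least 10 CPM. These correlations are descriptions, since the groups share Controls, treatments and base levels. Slc7a11 ran closest to Slc4a7 (Pearson r = 0.98), a bicarbonate transporter, Txnrd1 to Lrrfip2 (0.98), Gclm to Tmem64 (0.97), Gclc to Dop1b (0.96) and Srxn1 to Ankrd28 (0.97). Nqo1 ran closest to Msrb1 (0.97), a methionine sulfoxide reductase, and Eno1 (0.96), a glycolytic enolase, and Hmox1 to Akr1c13 (0.93). Akr1b8 had no such close match, the nearest being Acadvl (0.80), an enzyme of mitochondrial fatty acid oxidation. Within the 10, the subunits Gclm and Gclc had an r of 0.95 and Gsr and Prdx1 of 0.92, whereas Nqo1 and Srxn1 ran opposite (r = -0.61).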

How the data were processed

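RNA-seq was made from total RNA of 42 BMDM libraries, stranded and ribodepleted, with paired ends. The deposited values are raw read counts, 1 number per gene and library, which the authors obtained after alignment with STAR to mm10 and did not normalise. The submitters' processing notes name STAR 2.7.3a and fastp 0.19.11. The annotation release and the use of strand in counting are not given in the sources used here, so overlapping genes and close paralogs are uncertain. Columns name a group only, so library numbers (1 to 3) follow column order and pair nothing. Of 37310 identifiers, 32620 matched a symbol.

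The analysis ran in R 4.3.3 with edgeR 4.0.16 and limma 3.58.1. After filterByExpr, which kept 11624 genes, libraries were scaled by TMM, and 1 quasi-likelihood model with a mean for each group was fitted to all 42. The study itself used DESeq2. Each of 30 comparisons used the quasi-likelihood F test with Benjamini-Hochberg adjustment over all genes tested, two-sided. Calls were made at an adjusted p under 0.05. The SE is the log2 fold change divided by the square root of F, and 95% intervals follow from it. An exact permutation test of 3 against 3 libraries cannot go below p = 0.1 and was not used. For correlations, log2 CPM were computed after adding a prior count of 2.

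The 10 genes, the other lists and the comparisons were chosen with earlier results of these data known. The text names all 10 genes, at most 3 genes per direction of each other list (called, averaging 1 CPM or more, and with the largest changes), Nfe2l2, Keap1, Bach1, Irf5 and the most similar genes (mean of at least 10 CPM). Promoter sequences are from RefSeq.

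On data simulated for LPS 2 h in WT with 200 changed genes, the test recovered 84.5% (74% of 2-fold and 95% of 4-fold changes) among 11384 genes, 6.11% of calls were false, and where nothing was changed 0 genes were called. The alternatives were RLE size factors, all genes with a count, DESeq2 1.42.0, a fit of only the libraries compared, and leaving out each library in turn. The comparisons of the change from Control 0 h by genotype, and the genotype mean without Control 0 h, were added after the data were seen. The study's chromatin, adipose tissue and human data were not used here.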

Additional observations from a re-analysis of the deposited data

Results flagged for a closer look

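Several of the 10 genes responded to LPS differently at 24 h and at 2 h, by the test of the difference between the responses (edgeR, values on the log2 scale, 24 h minus 2 h). In WT the differences were -1.45 for Slc7a11, -1.50 for Gclc, -1.27 for Srxn1, -1.26 for Txnrd1, -0.70 for Gclm, -0.33 for Prdx1, 0.93 for Nqo1 and 0.56 for Akr1b8. In KO they were -1.84 for Slc7a11, -1.23 for Gclc, -1.11 for Srxn1, -1.20 for Txnrd1, -0.56 for Gclm, -0.31 for Prdx1 and 0.60 for Akr1b8. Those of Prdx1 were lost under several of the settings tried in each genotype. The WT differences of Nqo1 and Akr1b8 were not called without WT LPS 24 h library 2, the library highest for all 10 genes.

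The response of Akr1b8 to palmitate differed between the times by 1.20 in WT and 1.28 in KO.

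The change from Control 0 h differed by genotype (KO minus WT) for Slc7a11 at 2 h (-0.79), for Gclc at 2 h (-0.76) and for Gclc at 24 h (-0.68). These share the Control 0 h libraries, in which fibroblast markers were higher in the libraries labelled KO, and the part of those markers was not tested. The Slc7a11 value and the Gclc value at 24 h were each lost when certain single libraries were left out, as given above.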

How the results depend on the processing

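Of 300 tests of the 10 genes (30 comparisons), 80 were called, 58 of these under every alternative run for them, 22 were lost under at least 1, 35 uncalled results gained a call under at least 1, and 2 uncalled values changed sign, both in LPS 24 h against Control 24 h in WT without WT LPS 24 h library 2 (Slc7a11 from 0.26 to -0.051, Nqo1 from 0.36 to -0.12). Leaving out 1 library gave -0.051 to 0.45 for this value of Slc7a11 and -0.12 to 0.65 for that of Nqo1. No called value changed sign. No paired analysis was possible because the columns carry no replicate numbers, only group names.

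The values that follow are numbers of the 10 genes called. Testing all genes with a count gave 2 for palmitate 2 h in WT (0 in the report) and 3 for palmitate 24 h in KO (1). For KO against WT it gave 1 at Control 2 h (0), 2 at palmitate 2 h (0), 2 at LPS 2 h (1), 1 at Control 24 h (0) and 2 at palmitate 24 h (0). It gave 7 for Control 2 h against 0 h in KO (4), 2 in WT and 3 in KO for late against early palmitate (1 each), and 3 for the genotype difference in the change from 0 h to 24 h (1). Fitting only the libraries compared gave 2 for palmitate 2 h in WT, 3 for palmitate 24 h in KO, and for KO against WT 1 at Control 2 h, 2 at palmitate 2 h, 1 at Control 24 h, 2 at palmitate 24 h and 0 at LPS 24 h (1). It gave 2 in WT and 2 in KO for late against early palmitate, and 3 for the change from 0 h to 24 h. The genotype mean gave 3 with RLE size factors, 3 with DESeq2 and 2 without Control 0 h (5). The shares of all genes called under these fits are not set beside the counts, here or below. A shift of the 10 genes can therefore not be told apart here from a shift of all genes. The cause of these shifts was not tested.

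Leaving out 1 library gave 2 to 5 genes for the genotype mean, 0 to 1 for KO against WT at LPS 2 h, 0 to 2 at LPS 24 h, 2 to 4 for Control 2 h against 0 h in KO, and 1 to 3 and 0 to 2 for the genotype difference in the change from 0 h to 2 h and to 24 h. In the other comparisons the number stayed within 1.5 times the reported one. Nqo1 rested on as few as 44 counts in a library, the lowest of the 10 genes, which limits the precision of its values.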
